A study of Mus musculus with 67 samples.

Results

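The BCL2 family genes were followed in preimplantation mouse embryos at 5 stages that began with 2 cells and ended with the blastocyst. The members were the 10 rows of the deposited expression table whose symbols are Bcl2l10, Mcl1, Bcl2l1, Bcl2, Bax, Bak1, Bid, Bad, Bik and Bcl2l11, out of 26414 rows. Each symbol was present in a row of its own. The list was set by gene family, with earlier results of these data known.

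The embryos were C57BL/6, fertilised in vitro from oocytes of superovulated females (6 weeks old) and sperm of 10-week-old males. In the light group, 2-cell embryos were placed under 5000 lx for 6 h and then cultured in the dark, and the control group was kept in the dark throughout. Both groups shared the strain, the hormone treatment, the in vitro fertilisation and the culture. Single cells were picked by hand from dissociated embryos, each giving 1 library, and amplified by SMART-seq2, a full-length cDNA method for very small RNA amounts, and each library carries an embryo number in its label. Control libraries numbered 7 (2-cell), 6 (4-cell), 4 (8-cell), 13 (morula) and 3 (blastocyst). Light libraries numbered 6, 8, 8, 6 and 6 in the same order. Where the text counts embryos, morulae or blastocysts of a group, it counts libraries. Whether libraries came from the same embryo was not given beyond the embryo number. Neither litter, mother nor collection day was given, so the p-values measure the spread between these libraries only.

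The unit throughout is the normalised value, which is the read count of a gene divided by the size factor of its library, with no division by gene length. Libraries held 836011 to 8551674 reads (median 4632053), of which 54.0% to 89.3% lay on the gene pair CT010467.1 and Gm42418, annotated at ribosomal RNA repeats. The 318177 to 2867034 reads outside this pair set the depth for the BCL2 family. A count of 3 reads, taken as the limit that a count of 0 allows, was worth a value of 0.797 to 11.7 depending on the library. The ratio of Gm42418 to CT010467.1 was 3.00 ± 0.668 (SD, n = 7) in control and 1.65 ± 0.0697 (SD, n = 6) in light 2-cell libraries, without overlap. The ranges did not overlap at the 8-cell stage either (2.01 to 2.34 in control, 1.52 to 1.71 in light) or in morulae (2.34 to 4.14 and 1.49 to 1.67), and they overlapped in 4-cell embryos and blastocysts. The light comparisons at those 3 stages rest on these same libraries. The ratio differed between control stages too, with 2.34 to 4.14 in morulae and 1.42 to 1.45 in blastocysts. Within the control 4-cell group, embryos 1 and 2 were at 4.55 and 4.35 and the rest at 1.61 to 1.98. The stage comparisons therefore carry the same limit, and the part of this ratio in the results was not tested. A value is relative to the other reads of its library, so a difference in total RNA per cell cannot be seen in it.

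Oocyte and trophectoderm genes followed the labelled stages. The summed value of 10 oocyte genes had a median of 3805 in control 2-cell embryos and 39.0 in control blastocysts, and that of 8 trophectoderm genes had medians of 189 and 3147. In light these medians were 1181 and 30.7, and 176 and 4164. Genes of the inner cell mass had medians of 310 and 1438 in control but 381 and 268 in light. Those of primitive endoderm had 527 and 711 in control but 459 and 118 in light, so these 2 lists did not rise with stage in light. The summed value of 7 sperm genes was at most 10.4 in any library, and the sperm gene Tnp2 had no read at the 2-cell stage. The summed value of 7 cumulus cell genes was 23.0 to 103 in control and 68.7 to 228 in light 2-cell libraries, and 1 of 4 tested, Tnfaip6, was higher in light (log2 2.65).

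Proteins of the BCL2 family set whether the outer membrane of the mitochondrion is opened, the step that lets cytochrome c escape and start the caspases. The pro-survival members (MCL1, BCL-XL from Bcl2l1, and BCL2) hold the pore-forming effectors BAX and BAK in check. BCL2L10 is counted with them here by family class, and its activity was not measured. The BH3-only members (BID, BAD, BIK and BIM from Bcl2l11) carry a short BH3 helix that fits a groove of the pro-survival proteins or activates the effectors directly. In the mouse, Bcl2l10 is known as a transcript of the oocyte and ovary, and Mcl1 is needed for the embryo to implant.

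The BH3 core is the stretch that ties the family together, so its coding sequence is shown for the members. A leucine codon followed by codons for any 3 residues, then glycine, alanine or serine, then aspartate was searched in the coding sequences of GENCODE M21 (GRCm38), and the capitals mark the leucine codon and the codons for glycine or serine and aspartate. The 18 bases below run 5′ to 3′ on the coding strand.
Mcl1: CTGcggcgcgtgGGCGAC
Bcl2l1: CTGagagaggcaGGCGAT
Bcl2: CTCcgccgggctGGGGAT
Bax: CTCcggcgaattGGAGAT
Bak1: CTTgctctcatcGGAGAT
Bid: CTCgcccaaataGGCGAT
Bad: CTCcgaaggatgAGCGAT
Bik: CTGgcctgcatcGGCGAT
Bcl2l11: CTGcggcggatcGGAGAC
A match was found in 9 of the 10 members and in no coding transcript of Bcl2l10. The same pattern occurred in 34.6% of 20338 genes with a curated coding sequence, so it is a description of these letters and not a test of the motif. Bad was the member with serine in place of glycine. The cores were identical between pairs of members at 7 to 14 of 18 bases, with 14 for Mcl1 and Bcl2l11 and for Bax and Bcl2l11, and 7 for Bcl2l1 and Bak1.

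All members are protein-coding genes. The pro-survival genes lie at chr9:75347758-75351632 (Bcl2l10), chr3:95658788-95663176 (Mcl1), chr2:152780668-152831728 (Bcl2l1) and chr1:106538178-106714274 (Bcl2) in GRCm38. The effectors lie at chr7:45461697-45466898 (Bax) and chr17:27019810-27029009 (Bak1). The BH3-only genes lie at chr6:120891930-120916853 (Bid), chr19:6941861-6951899 (Bad), chr15:83526862-83544634 (Bik) and chr2:128126038-128162547 (Bcl2l11). Bid shared 17.7% of its exon length with Bcl2l13 and Bad shared 20.5% with Gpr137, each on the opposite strand. Bak1 shared 18.2% and 7.35% with entries of Ggnbp1 and Bcl2 6.09% with D630008O14Rik, also on the opposite strand. Bax shared 12.2% with the same-strand gene Gm45808, which has no row in the deposited table. Whether reads were counted by strand was not stated, so reads in the opposite-strand stretches cannot be told apart between the genes. Counting by strand would not separate Bax from Gm45808.

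The members differed widely in how often they were read. Bcl2l10, Mcl1, Bcl2l1 and Bax had reads in all 67 libraries, and Bid and Bcl2l11 had reads in 65. Bad had reads in 62 libraries. Bak1 was read in 19 libraries with 91 reads in all, and Bik in 18 libraries with 233 reads. Bcl2, the founding pro-survival gene of the family, had 18 reads in 3 libraries and none in the other 64. Its reads came from control 4-cell embryo 4 with 8 reads, light 8-cell embryo 5 with 2 reads and light morula embryo 6 with 8 reads. Bcl2 was therefore at or near the detection limit in every group, and no fold change of it is read. Its fitted differences between stages rest on single libraries.

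**Figure D1:**
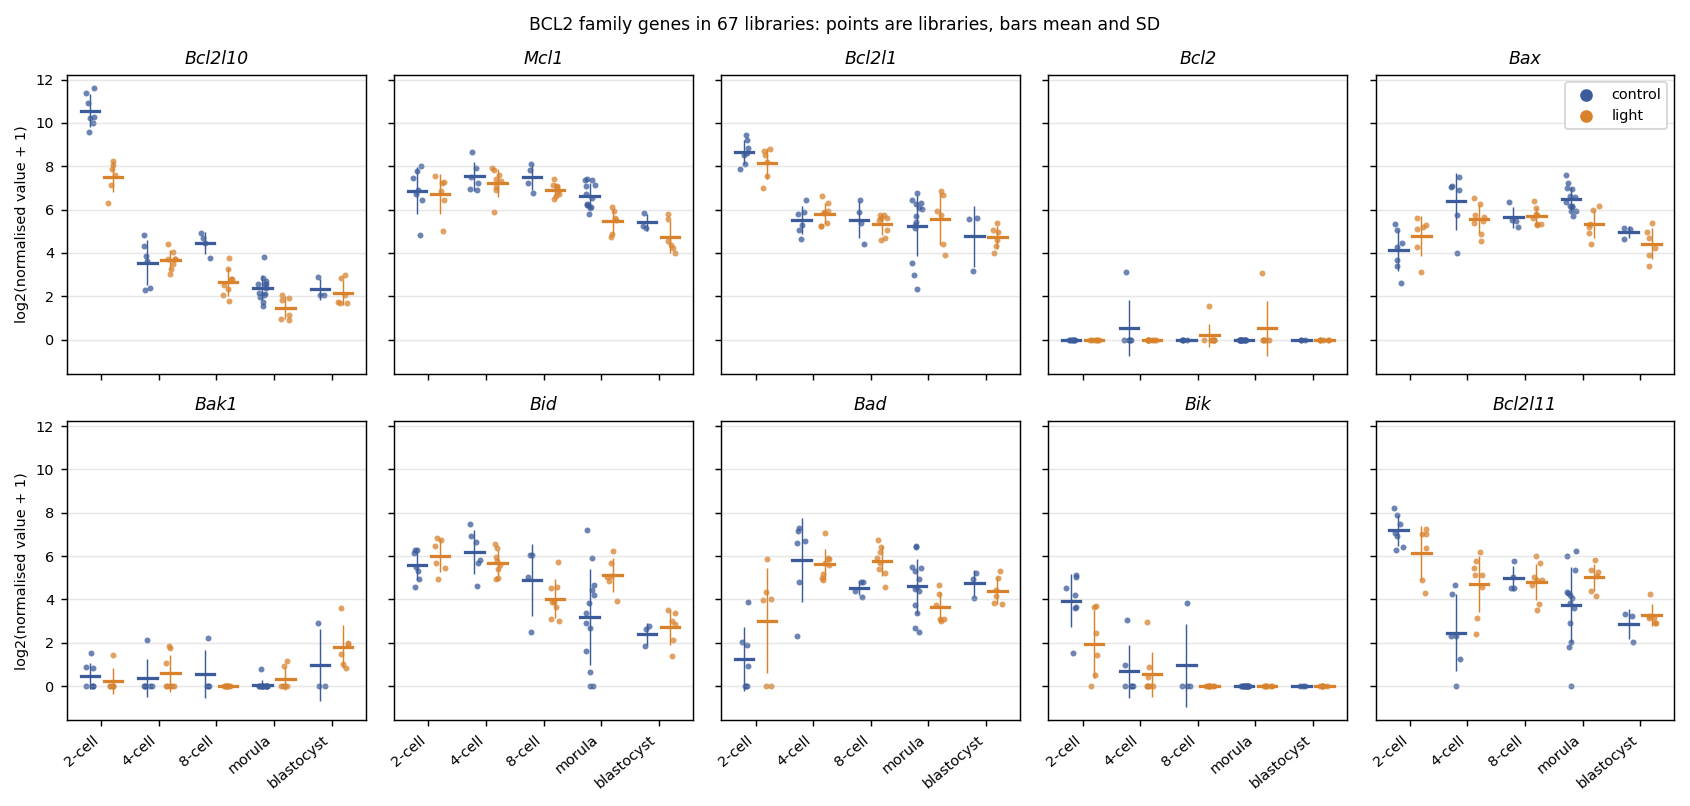
The log2 of the normalised value plus 1 is plotted for each of the 10 members against stage, with control libraries in blue and light libraries in orange, and bars for the group mean and SD. Bcl2l10 lies between 759 and 3118 in control 2-cell libraries and between 77.2 and 299 in light ones, and Bcl2 is at 0 in 64 of 67 libraries.

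In light-exposed 2-cell embryos, Bcl2l10 was the member that differed from control. It was 8.24-fold lower in light, from a mean of 1705 ± 889 (SD, n = 7) to 201 ± 82.4 (SD, n = 6). Control libraries held a lowest value of 759, a median of 1232 and a highest of 3118. Light libraries held a lowest value of 77.2, a median of 211 and a highest of 299. Every light library was below every control library. The log2 difference was −3.04 (SE 0.32, limma adjusted p = 9.80e-07). Of 18532 genes tested at this stage, 10.5% passed an adjusted p under 0.05 and a fold of at least 2, and 4.15% did not overlap between the groups. Of the 8 members tested, 1 was called, so the share of members called was near the background. The median of all genes did not move (log2 0.00), and after scaling to the reads outside the CT010467.1 and Gm42418 pair the Bcl2l10 difference was −2.98.

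A comparison within libraries, which needs no scaling, gave the same direction. The log2 ratio of the Bcl2l10 value to the Bcl2l1 value was 1.92 ± 0.91 (SD, n = 7) in control and −0.61 ± 0.53 (SD, n = 6) in light. The ratio was above 0 in all 7 control libraries and in 1 of 6 light libraries. Bcl2l1 itself, which encodes BCL-XL, had medians of 388 in control and 331 in light and was not called (log2 −0.52, SE 0.32, adjusted p = 0.314).

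Other transcripts carried over from the oocyte differed in the same direction as Bcl2l10. The summed value of 10 oocyte genes was 2537 to 5541 in control and 749 to 2234 in light 2-cell libraries, again without overlap. Of these 10, 4 were lower in light and none was higher, with a median log2 difference of −1.16. Bmp15, an oocyte growth factor, was lower by a log2 difference of −2.19 (SE 0.24, adjusted p = 1.00e-06), from 2506 ± 779 to 538 ± 143. It was a large part of the summed value, whose means were 4049 in control and 1403 in light. Ooep (−2.19), Oosp1 (−1.62) and Nlrp5 (−1.10) were the other called genes, while Zp3, a gene of the zona pellucida, had a log2 difference of 0.40 and was not called. The part of a general difference in oocyte transcripts in the Bcl2l10 result was not tested.

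**Figure D2:**
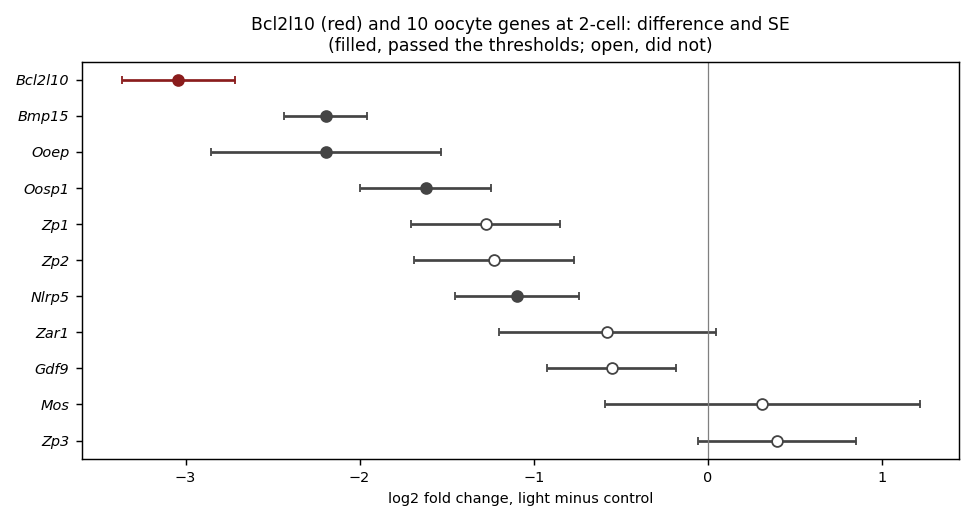
The log2 difference between light and control at the 2-cell stage is plotted with its SE for Bcl2l10 (red) and 10 oocyte genes (grey), with filled points for genes past both thresholds. Bcl2l10 at −3.04 lies to the left of Bmp15 at −2.19, and Zp3 and Mos lie to the right of 0.

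Bik and Bcl2l11 were lower in the means of light 2-cell embryos without passing the test. Bik, a BH3-only gene of the endoplasmic reticulum and mitochondrion, ran from 1.84 to 33.8 (median 17.7) in control and from 0 to 11.9 (median 3.11) in light, with a log2 difference of −1.99 (SE 0.84, adjusted p = 0.124). Bcl2l11, which encodes BIM, ran from 77.9 to 295 (median 134) in control and from 18.6 to 152 (median 105.0) in light, with −1.05 (SE 0.46, adjusted p = 0.139). The groups overlapped for both genes. Bad, whose protein binds BCL-XL, had medians of 0.919 in control and 14.9 in light, and 3 of 7 control and 2 of 6 light libraries had no read of it (log2 1.77, SE 0.96, adjusted p = 0.245). Mcl1, Bax and Bid had log2 differences of −0.15, 0.65 and 0.44, each with an SE between 0.45 and 0.62. Bak1 was read in 3 control libraries and 1 light library and was too low to test, as was Bcl2.

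The median log2 difference over all genes was 0.13 in 4-cell embryos, 0.16 in 8-cell embryos and 0.10 in morulae, and 0.17, 0.07 and 0.23 after scaling to the reads outside the pair, so member differences are read against these shifts. At the 4-cell stage, none of the 8 members tested by limma was called, against 1.45% of 15010 genes. This share was 5.20% without control 4-cell embryo 3 and 0.441% without control 4-cell embryo 5. At an unadjusted p under 0.05 there was 1 member, Bcl2l11, and edgeR and DESeq2 called none. Bcl2l11 had a lowest value of 0, a median of 3.92 and a highest of 24.6 in 6 control libraries. In 8 light libraries the lowest was 4.34, the median 33.7 and the highest 71.2. The groups overlapped, and the log2 difference was 2.25 (SE 0.77, adjusted p = 0.133). Bcl2l10, so far apart at the 2-cell stage, had medians of 12.5 in control and 12.1 in light (log2 0.11, SE 0.63). Bax had medians of 125 in control and 46.4 in light, with a log2 difference of −0.82 (SE 0.49, adjusted p = 0.394). The remaining members Mcl1, Bcl2l1, Bak1, Bid and Bad had log2 differences between −0.51 and 0.28. Of the control libraries, 4 of 6 at this stage, 11 of 13 morulae and 1 of 3 blastocysts were closer by median correlation to the light libraries of their stage than to their own group, and no light library was closer to control. For control 4-cell embryo 3 these correlations were 0.844 and 0.788. Leaving out any single 4-cell library gave no called member.

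At the 8-cell stage, none of the 7 members tested by limma was called, against 9.21% of 13861 genes. At an unadjusted p under 0.05 there were 2 members, Bcl2l10 and Bad, and DESeq2 called both whereas edgeR called none. Bcl2l10 was 25.0, 29.3, 12.8 and 20.9 in the 4 control embryos. The 8 light embryos had a lowest value of 2.41, a median of 5.34 and a highest of 12.4. All light values were below all control values, as in 5.61% of genes tested. The log2 difference was −1.81 (SE 0.64, adjusted p = 0.0734), and −1.96 (adjusted p = 0.0490) after median-ratio scaling, which passed. Bad was 26.8, 20.2, 16.2 and 27.1 in the control embryos and ran from 22.8 to 105 (median 54.8) in the light embryos. The lowest light value of Bad lay between the control values, and the log2 difference was 1.24 (SE 0.43, adjusted p = 0.0692). Without light 8-cell embryo 8, Bad was called. Mcl1 was 228, 273, 151 and 109 in control and 87.5 to 172 (median 123) in light, with a log2 difference of −0.57 (SE 0.29). Bcl2l1, Bax, Bid and Bcl2l11 had log2 differences of −0.21, 0.06, −0.86 and −0.15. Of 6 trophectoderm markers tested at this stage, 3 were higher in light, the keratin genes Krt8 and Krt18 and Dab2, and the part of this in the member values was not tested.

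In morulae, none of the 7 members tested by limma was called, against 1.18% of 15217 genes, a share of 0.546% to 1.60% when 1 library was left out. At an unadjusted p under 0.05 there were 3 members, Mcl1, Bax and Bid, edgeR called none and DESeq2 called Mcl1. Mcl1 had a lowest value of 53.8, a median of 92.0 and a highest of 167 in 13 control morulae. In 6 light morulae these were 25.4, 46.1 and 69.5. The groups overlapped at their edges, and the log2 difference was −1.18 (SE 0.36, adjusted p = 0.0905). Bax, the effector read in every library, ran from 50.9 to 192 (median 81.2) in control and from 20.2 to 70.7 (median 37.4) in light, with a log2 difference of −1.15 (SE 0.37, adjusted p = 0.110). Bid, which links the death receptors to the mitochondrion, ran from 0 to 147 (median 9.36) in control and from 14.0 to 74.3 (median 32.3) in light, with a log2 difference of 1.94 (SE 0.83, adjusted p = 0.242). The wide control range of Bid held both the lowest and the highest value of the stage. Bcl2l11 and Bad had log2 differences of 1.27 (SE 0.70) and −0.96 (SE 0.59), Bcl2l10 had −0.92 and Bcl2l1 had 0.33.

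In blastocysts, none of the 8 members tested by limma was called, against 5.34% of 12743 genes. This share was 0.731% without control blastocyst embryo 2 and 7.74% without light blastocyst embryo 23. None reached an unadjusted p under 0.05, and neither edgeR nor DESeq2 called any. The median of all genes was at −0.64 on the log2 scale here and at −0.02 after scaling to the reads outside the pair. Mcl1 was 34.7, 36.5 and 57.1 in the 3 control blastocysts and 14.7 to 54.5 (median 21.0) in the light ones (log2 −0.67, SE 0.53). Bax was 33.1, 23.7 and 34.0 in control and 9.57 to 40.6 (median 21.4) in light (log2 −0.52, SE 0.55). Bcl2l1 was 7.89, 47.3 and 46.2 in control and 14.7 to 41.0 (median 26.7) in light. Bak1, the other effector, was 0, 0 and 6.42 in control and had reads in all 6 light blastocysts, from 0.776 to 11.3 (log2 0.85, SE 0.79). Cell type markers differed between the groups of blastocyst libraries, and the cell type of each library was not given. Of 8 markers of the inner cell mass, 6 were lower in light. Of 7 primitive endoderm markers tested, 3 were lower and 0 higher, with a median log2 difference of −2.95. None of 8 trophectoderm markers was called, but 7 had a log2 difference above 0, with a median of 1.00 beside −0.64 for all genes. The part of this in the member values was not tested.

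**Figure D3:**
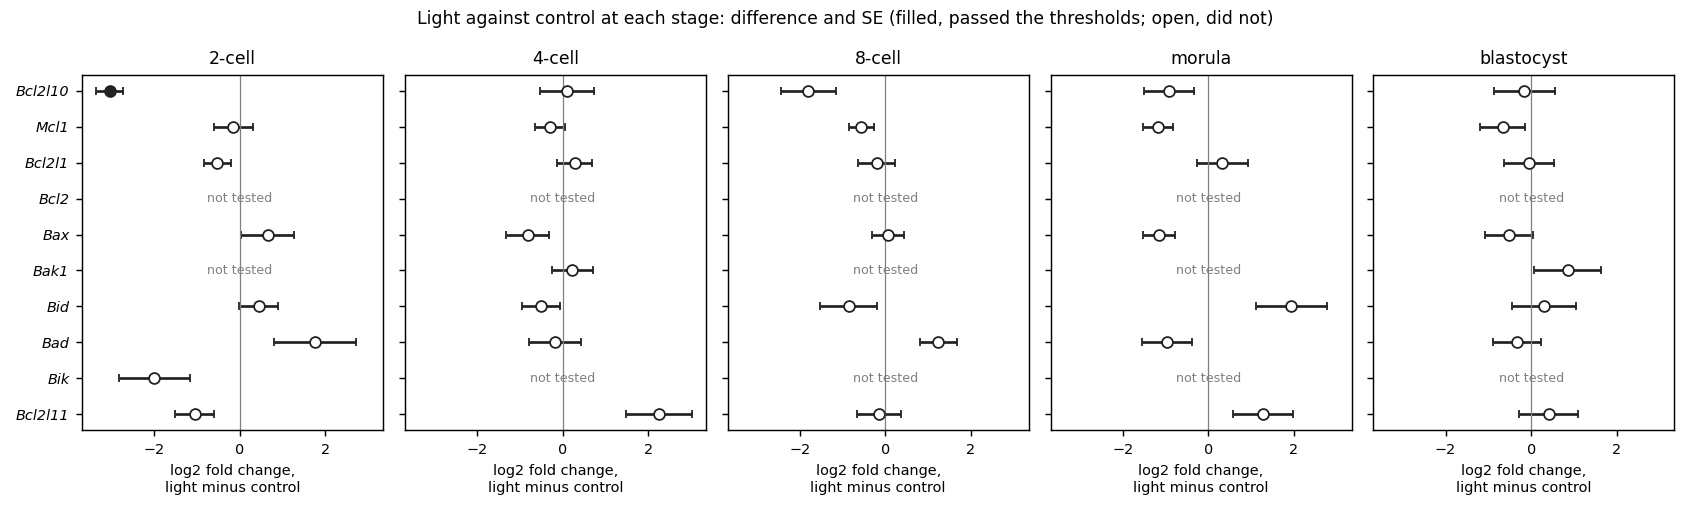
The log2 difference between light and control is plotted with its SE for each member in 5 stage panels, with filled points past both thresholds and open points not. The filled point is Bcl2l10 at the 2-cell stage (−3.04), and Bcl2l10 at the 8-cell stage (−1.81) and Mcl1 in morulae (−1.18) are open.

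The larger differences lay between stages. From the 2-cell to the 4-cell stage of control embryos, 6 of 10 members were called, against 42.4% of 22588 genes, in a fit over all 67 libraries. Bcl2l10 was lower by a log2 difference of −7.01 (SE 0.44, adjusted p = 3.16e-22), from a median of 1232 to 12.5. Its lowest 2-cell value was 759 and its highest 4-cell value 27.4. Bcl2l11 was lower by −4.73 (SE 0.67, adjusted p = 9.63e-09), from a median of 134 to 3.92. Bcl2l1 was lower by −3.13 (SE 0.51, adjusted p = 3.96e-07), from a median of 388 to 46.9. For these 3 genes the stages did not overlap, as in 16.0% of genes. Bik was lower by −3.27 (SE 0.51, adjusted p = 1.28e-07), and 4 of 6 control 4-cell libraries had no read of it.

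Bad and Bax rose over the same step. Bad was higher by 4.56 (SE 0.69, adjusted p = 7.52e-08), from a median of 0.919 to 99.7, and its 4-cell values ran from 3.93 to 158. Bax was higher by 2.26 (SE 0.45, adjusted p = 1.75e-05), from a median of 18.4 to 125. Mcl1 (log2 0.65, SE 0.40) and Bid (log2 0.63, SE 0.69) were not called, and Mcl1 had medians of 119 and 164. The median of all genes was at −0.40 over this step, and at −0.24 after scaling to the reads outside the pair, with the same 6 members called. All 6 calls held without any of the 13 libraries. Control 4-cell embryos thus held less Bcl2l10, Bcl2l1, Bcl2l11 and Bik and more Bad and Bax per library than control 2-cell embryos.

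The promoters of 4 of these genes are shown because the genes moved in opposite directions over this step. The 250 bases before the annotated start come from RefSeq on GRCm38.p6 and run 5′ to 3′ on the gene's strand, at chr7:45466899-45467148 (Bax, minus strand), chr19:6941611-6941860 (Bad, plus strand), chr2:152831729-152831978 (Bcl2l1, minus strand) and chr2:128125788-128126037 (Bcl2l11, plus strand). Each is the window next to the outermost annotated start. Capitals mark motifs found on either strand. The GC box was searched as GGGCGG, and the CCAAT box by the letters of its name. The E-box was searched as CACGTG. The TATA box, searched as TATAAA, was not in these windows.
Bax: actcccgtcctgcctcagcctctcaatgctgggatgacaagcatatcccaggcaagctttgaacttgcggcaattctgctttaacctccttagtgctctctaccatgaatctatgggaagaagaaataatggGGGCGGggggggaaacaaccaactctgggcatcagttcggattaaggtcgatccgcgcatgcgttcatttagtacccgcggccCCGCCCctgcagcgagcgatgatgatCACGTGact
Bad: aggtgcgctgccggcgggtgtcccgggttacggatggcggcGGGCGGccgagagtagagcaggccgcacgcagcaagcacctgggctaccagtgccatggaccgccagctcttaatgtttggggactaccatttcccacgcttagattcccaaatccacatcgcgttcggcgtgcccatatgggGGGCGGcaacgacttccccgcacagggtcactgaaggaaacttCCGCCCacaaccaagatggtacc
Bcl2l1: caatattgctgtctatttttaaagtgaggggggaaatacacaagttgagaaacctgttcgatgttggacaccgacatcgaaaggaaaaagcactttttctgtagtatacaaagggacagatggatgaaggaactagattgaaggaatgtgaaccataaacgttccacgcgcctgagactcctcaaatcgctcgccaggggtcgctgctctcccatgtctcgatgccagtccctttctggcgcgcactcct
Bcl2l11: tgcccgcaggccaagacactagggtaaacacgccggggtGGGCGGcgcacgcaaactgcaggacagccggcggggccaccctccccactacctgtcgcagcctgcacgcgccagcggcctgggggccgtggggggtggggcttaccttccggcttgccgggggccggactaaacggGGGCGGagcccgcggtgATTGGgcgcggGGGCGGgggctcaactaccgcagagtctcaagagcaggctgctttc
The Bax window held 2 GC boxes and 1 E-box. The Bad window held 3 GC boxes, the Bcl2l11 window 3 GC boxes and 1 CCAAT box, and the Bcl2l1 window none of these letters. RefSeq lists further starts that are not shown. The other Bad window held no GC box and 1 CCAAT box, the other Bcl2l11 window 2 GC boxes and 2 CCAAT boxes, and the other windows of Bcl2l1 none of these letters. Of 32851 promoters, 32.7% held a GC box, 33.8% a CCAAT box, 6.02% an E-box and 12.4% a TATA box within the same length. GC boxes stood before genes that rose and before a gene that fell. A RefSeq promoter was found for 8 of the 10 members, not for Bcl2l10 and Bik.

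In light embryos, 4 of 10 members were called over the same step, against 26.6% of genes. Bcl2l10 was lower by −3.86 (SE 0.42, adjusted p = 2.41e-11), from a median of 211 to 12.1. Its stages did not overlap, nor did those of Bcl2l1, as in 9.90% of genes. Bcl2l1 was lower by −2.33 (SE 0.50, adjusted p = 1.44e-04), Bad was higher by 2.62 (SE 0.67, adjusted p = 0.00168), and Bik was lower by −1.42 (SE 0.49, adjusted p = 0.0229). Bik was not called without light 2-cell embryo 9, 10 or 15, at adjusted p up to 0.114. Bcl2l11 had a log2 difference of −1.43 (SE 0.65, adjusted p = 0.0916) and Bax had 0.79 (SE 0.43, adjusted p = 0.174). With scaling to the reads outside the pair, Bax was called at 1.11 and Bik was not.

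The change from the 2-cell to the 4-cell stage was compared between light and control in a single test of the difference. Of 10 members, 2 were called, against 6.36% of genes. Bcl2l10 had a difference of 3.16 (SE 0.61, adjusted p = 5.52e-04), a smaller fall in light than in control. Since its 4-cell medians were 12.5 and 12.1, this is the 2-cell difference seen again in the same libraries. Bcl2l11 had a difference of 3.30 (SE 0.93, adjusted p = 0.0206), and it was not called without light 2-cell embryo 12 or control 4-cell embryo 1, at adjusted p up to 0.0540. In Bcl2l11 the 2-cell values were lower and the 4-cell values higher in light, with log2 differences of −1.05 and 2.25 that were not called on their own. Bik (1.85, SE 0.71), Bax (−1.47, SE 0.62) and Bad (−1.94, SE 0.97) had unadjusted p under 0.05 and adjusted p between 0.104 and 0.241.

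**Figure D4:**
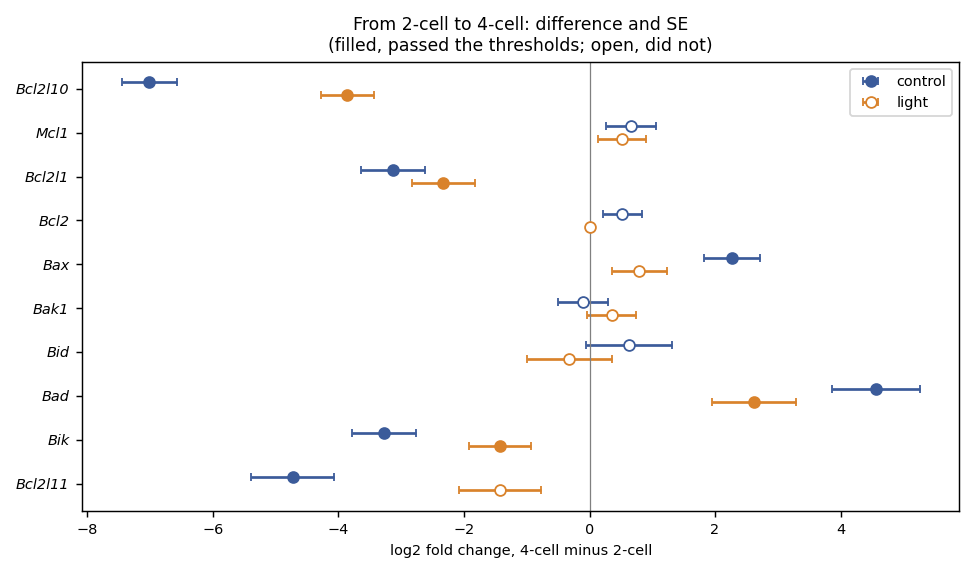
The log2 difference between the 4-cell and the 2-cell stage is plotted with its SE for each member in control (blue) and light (orange), with filled points past both thresholds. Bcl2l10 lies at −7.01 in control and −3.86 in light, and Bad at 4.56 and 2.62.

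After the 4-cell stage the members moved less. From the 4-cell to the 8-cell stage of control embryos, 1 of 10 members was called, against 6.75% of genes. Bcl2l11 was higher by 2.50 (SE 0.77, adjusted p = 0.0326), to 22.2, 53.2, 22.1 and 32.1 in the 4 embryos. It was not called without control 4-cell embryo 1, 4 or 5 or control 8-cell embryo 2, 3 or 4, at adjusted p up to 0.105. In light embryos limma called none of the members, against 2.35% of genes, with Bcl2l10 and Bid at unadjusted p under 0.05 and none called by edgeR.

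From the 8-cell stage to the morula, Bcl2l10 was the called member in control (log2 −2.08, SE 0.45, adjusted p = 4.81e-04), to a median of 4.20, against 14.8% of genes called. It still had a read in each of the 13 control morulae and 3 control blastocysts. In light embryos 2 members were called, against 4.60% of genes. Mcl1 was lower by −1.46 (SE 0.38, adjusted p = 0.0128), from a median of 123 to 46.1, with no overlap between the stages, as in 2.28% of genes. It was not called without light morula embryo 9 (adjusted p = 0.0511). Bad was lower by −2.13 (SE 0.67, adjusted p = 0.0499), from a median of 54.8 to 10.1, and this call was lost without any of 12 of the 14 libraries.

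From the morula to the blastocyst, Bax was the called member in control (log2 −1.54, SE 0.51, adjusted p = 0.0322), against 13.6% of genes called. The 3 control blastocysts, at 33.1, 23.7 and 34.0, were all below the lowest control morula at 50.9, and 5.45% of genes did not overlap. The call was lost without any 1 of these 3 blastocysts, at adjusted p up to 0.168. In light embryos 2 members were called, against 8.38% of genes. Bak1 was higher by 1.47 (SE 0.41, adjusted p = 0.0122), from reads in 2 of 6 morulae to reads in 6 of 6 blastocysts. Its blastocyst values began at 0.776, with a median of 2.33. The limit of 3 reads was worth 1.18 to 3.79 in the light morula libraries, so a count of 0 there allows such values. Bak1 was not called without light blastocyst embryo 24 (adjusted p = 0.0877). Bid was lower by −2.42 (SE 0.72, adjusted p = 0.0197), from a median of 32.3 to 6.72 without overlap (4.93% of genes did not overlap), and it was not called without light morula embryo 5 or light blastocyst embryo 26 or 29, at adjusted p up to 0.0692. After median-ratio scaling Bid was not called (log2 −1.58, adjusted p = 0.175), whereas Bcl2l10 was, at 1.59 (adjusted p = 0.0180).

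The order of the stages differed among the members. Bcl2l10, Bcl2l1, Bcl2l11 and Bik had their highest mean log2 value at the 2-cell stage in both groups. Mcl1 was highest at the 4-cell stage and lowest in blastocysts in both groups on the deposited scale. After either other scaling it was highest at the 8-cell stage in both groups, and after median-ratio scaling it was lowest in morulae of the light group. Its 4-cell and 8-cell values did not differ beyond their spread under these scalings. Bax was lowest in 2-cell embryos of the control. In the light group it was lowest in blastocysts on the deposited scale and lowest at the 2-cell stage after either other scaling, with blastocysts above the 2-cell stage by 1.52 after median-ratio scaling (adjusted p = 0.00215, called). Bad had its lowest mean log2 value at the 2-cell stage in both groups. In light its median was lower in morulae (10.1) than at the 2-cell stage (14.9). Light morulae and 2-cell embryos were not called apart for Bad (log2 0.62, limma adjusted p = 0.544). Bid was lowest in blastocysts in both groups, with medians of 5.22 in control and 6.72 in light. Bak1 had its highest mean in blastocysts in both groups, at 2.14 in control and 3.45 in light. The control mean rests on 1 library with reads out of 3 (median 0). Control blastocysts were not called against the next highest stage, the 8-cell stage (limma adjusted p = 0.757). Bik had no read in any of the 13 control and 6 light morulae or the 3 control and 6 light blastocysts.

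Levels were compared between members per length, as the normalised value per kb of exon. In control 2-cell embryos Bcl2l10 made up 85.5% ± 7.18 (SD, n = 7) of the sum over the 10 genes. In light 2-cell embryos it made up 48.9% ± 11.6 (SD, n = 6), and the ranges, 73.4% to 94.9% and 31.9% to 65.3%, did not overlap. The pro-survival genes together, with Bcl2l10 counted among them, were 95.6% in control and 80.9% in light. The effectors were 0.872% and 6.02%, and the BH3-only genes 3.51% and 13.1%. These shares sum to a fixed total, so a lower Bcl2l10 raises all the others. The sum over the 10 genes was 1592 per kb in control and 327 per kb in light on average. At the 4-cell stage Bcl2l10 was down to 5.74% in control and 7.41% in light. Mcl1 (31.4% and 32.6%) and Bax (29.0% and 21.6%) were then the largest shares in both groups. In morulae Bax was the largest share, at 47.1% in control and 34.6% in light. Bcl2 was at most 0.201% on average in any group.

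**Figure D5:**
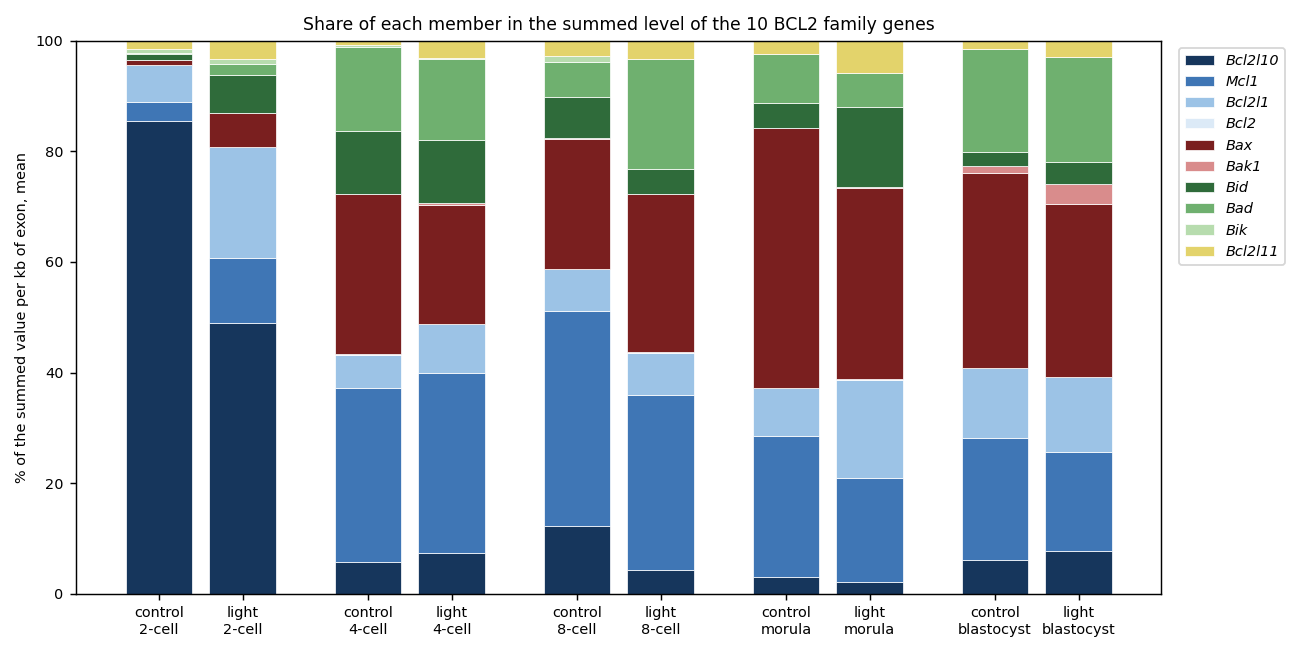
Each stacked bar gives the mean share of the 10 members in their summed normalised value per kb of exon (%), for control and light at each stage. Bcl2l10 fills 85.5% of the control and 48.9% of the light bar at the 2-cell stage and 2.09% to 12.3% of the bars at later stages.

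Ratios of pro-survival to effector transcripts were taken within libraries, with no division by length. The log2 ratio of the Mcl1 value to the Bax value was 2.76 ± 1.30 (SD, n = 7) in control and 1.96 ± 1.33 (SD, n = 6) in light 2-cell embryos. It was 0.16 ± 0.94 (SD, n = 13) and 0.13 ± 1.09 (SD, n = 6) in morulae. The log2 ratio of Bcl2l1 to Bax was 4.54 ± 1.26 in control and 3.37 ± 1.15 in light 2-cell embryos, and −0.86 ± 1.56 and 0.25 ± 0.47 at the 4-cell stage. Control and light ranges overlapped at each of these points. No test was run on these ratios.

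The genes whose 10 group means ran most like those of the 3 most abundant members were found among 11130 genes, as a description over 10 points that share their size factors. For Bcl2l10 these were Psd2 (Pearson r = 0.993), Bmp15 (0.992) and Mapk8 (0.992). Mapk8, the kinase JNK1 that phosphorylates BH3-only proteins, had means of 762 in control and 262 in light 2-cell embryos. For Mcl1 they were Zdhhc7 (0.968), Cab39 (0.965) and Glis2 (0.955), and for Bcl2l1 they were Psg16 (0.995), Pacsin1 (0.992) and Ube2k (0.991).

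Around the 10 members, 61 other genes of the apoptosis pathway were counted from lists. At the 2-cell stage 14 of 51 tested were called, 9 higher and 5 lower in light, with a median log2 difference of 0.46 beside 0.00 for all genes, of which 10.5% were called. Other BCL2 family genes gave 4 of 10, all higher, in contrast to the direction of Bcl2l10. Pmaip1, which encodes the MCL1-binding BH3-only protein NOXA, had a median of 1.30 in control and 43.7 in light (log2 3.50, SE 0.93, adjusted p = 0.0127). Bok, another effector-like gene, had medians of 0 and 10.4 (log2 2.93, SE 0.75, adjusted p = 0.00989). Bnip3, a mitophagy gene of the family, had medians of 77.0 and 241 (log2 2.14, SE 0.39, adjusted p = 5.57e-04). Executioner caspases and nucleases gave 2 higher and 1 lower of 7, while the mitochondrial release, caspase inhibitor and death receptor lists gave none. Regulators of the family gave 3 higher and 4 lower of 12, with Trp53 higher (log2 2.16) and Fbxw7, a ubiquitin ligase of MCL1, lower (log2 −2.75).

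At the later stages fewer pathway genes were called, and so were fewer genes in all. There was 1 of 50 at the 4-cell stage (1.45% of all genes), Casp6 (log2 2.94, adjusted p = 0.0494), and 1 of 50 in morulae (1.18% of all genes), again Pmaip1 (log2 3.66, adjusted p = 0.0288), with medians of 10.6 in control and 130 in light. At the 8-cell stage 6 of 48 were called (9.21% of all genes), 5 higher, led by the death receptor gene Tnfrsf10b (log2 2.73), the protease gene Htra2 (2.56) and the mitochondrial channel gene Vdac2 (1.98), and 1 lower, Mapk8 (−1.75). In blastocysts 5 of 49 were called (5.34% of all genes), all lower, led by Usp9x (−2.60), which encodes a deubiquitinase of MCL1, Aifm1 (−2.44) and Casp6 (−1.92), where the median of all genes was −0.64. In control embryos 23 of 53 were called from the 2-cell to the 4-cell stage, 11 higher and 12 lower, a share near the 42.4% of all genes.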

How the data were processed

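RNA of 67 libraries was analysed (33 control, 34 light). Per the labels, the authors' notes name HISAT2, HTSeq 0.9.1 and the build mm9. The authors deposited a single table of signal values for 26414 genes. The study describes RPKM, but the values were whole read counts times a factor per library, with at least 99.97% of the values of any library whole within 0.01, so no length was divided out and reads were recovered. In 11 genes some value was not whole. Symbols were matched to GENCODE M21 on GRCm38 (26329, 99.7%). No coordinates were converted from mm9.

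Values were tested on log2(value + 1), so fold changes of low genes are understated, with limma 3.58.1 (R 4.3.3, empirical Bayes with trend), on genes above a value of 1 in at least 3 libraries of a fit. Light was compared with control in a fit per stage, and stages in a fit over all libraries. Called means a Benjamini-Hochberg adjusted p under 0.05 over all genes and a fold of at least 2. Every adjusted p is of this kind. DESeq2 1.42.0 and edgeR 4.0.16 were run on the recovered reads as alternatives, DESeq2 for light against control only. The alternatives were another pseudocount, no filter, 2 other scalings, another set of libraries in the fit, a block for the replicate number, and fits that left out each library in turn. The limma and edgeR fits of light against control were also run on simulated reads. That simulation gave every gene the same spread and placed changes in the better-read genes only. It therefore does not cover low genes such as Bcl2 and Bak1, and no result here rests on it. Even the most alike libraries of any group differed beyond counting error, so none was taken as a copy.

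All 10 members were named. Of the other apoptosis genes, up to 3 with the largest called difference per list comparison of light with control were named, besides genes picked after their values were seen, such as Bnip3 and Trp53. The values of 1 gene are not reported here. The members and gene lists were chosen with earlier results of these data known. Same-numbered control and light libraries did not deviate together (correlations of −0.0873 to 0.0695), so the numbers were not taken to pair samples. The limit of 3 reads covers counting error only, and the SDs and SEs come from the spread between libraries.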

Additional observations from a re-analysis of the deposited data

Results flagged for a closer look

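Of 71 combinations of a member and a group of 4 to 10 libraries, 12 had a library that stood apart from its group on the log2 scale. A group in which a single library has reads is flagged whatever its value, so this count cannot be set against a rate expected by chance. Bcl2 stood out in control 4-cell embryo 4 (7.82), light 8-cell embryo 5 (1.90) and light morula embryo 6 (7.47), each the only library of its group with a read. Bak1 stood out in light 2-cell embryo 14 (1.68), control 4-cell embryo 5 (3.42) and control 8-cell embryo 1 (3.70), again the only libraries of their groups with a read. Bik stood out on the low side in control 2-cell embryo 24 (1.84), and on the high side in control 4-cell embryo 6 (7.39), light 4-cell embryo 11 (6.74) and control 8-cell embryo 2 (13.3). Light 4-cell embryo 11 also had the highest Bad value of its group (135). Bcl2l11 was highest in light blastocyst embryo 29 (17.9).

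The change from the 2-cell to the 4-cell stage differed between light and control for Bcl2l10 (log2 3.16) and Bcl2l11 (log2 3.30), by limma's test of the difference itself.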

How the results depend on the processing

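The Bcl2l10 difference at the 2-cell stage kept its direction and its call without each of the 13 libraries (log2 −3.21 to −2.79) and under both other pseudocount and filter choices, both other scalings, edgeR, DESeq2 and the fit over all libraries. Counts of called members that moved by over 1.5 times were as follows. For light against control, the fit over all libraries gave 2 in 2-cell embryos and 1 each in 4-cell embryos, 8-cell embryos and morulae. DESeq2 gave 2 in 8-cell embryos and 1 in morulae, and median-ratio scaling gave 1 in 8-cell embryos. In control, from the 4-cell to the 8-cell stage, median-ratio scaling, scaling outside the pair and edgeR each gave 2 and the fit of the 2 groups alone gave 0. From the 8-cell stage to the morula, scaling outside the pair and edgeR gave 2. From the morula to the blastocyst, the pseudocount of 0.1 and median-ratio scaling gave 0. In light, the fit of the 2 groups alone gave 1 from the 4-cell to the 8-cell stage, the pseudocount of 0.1 and no filter each gave 1 from the 8-cell stage to the morula, and the pseudocount of 0.1 and edgeR each gave 1 from the morula to the blastocyst. For the difference of the 2-cell to 4-cell changes, edgeR gave 1. Smaller moves were 7 called by edgeR from the 2-cell to the 4-cell stage of control, 3 by median-ratio scaling for the same step in light (Bik lost, adjusted p = 0.0515), and 3 by median-ratio scaling for the difference of these changes (Bik added, adjusted p = 0.0349). Some counts held with other members. From the 2-cell to the 4-cell stage of light, scaling outside the pair and edgeR called Bax in place of Bik, and the fit of the 2 groups alone called Bcl2l11 in place of Bik. From the morula to the blastocyst, edgeR called Bak1 in place of Bax in control. In light, both other scalings called Bcl2l10 in place of Bid, and the fit of the 2 groups alone called Bcl2l11 in place of Bak1. The causes were not tested.

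Leaving out each library in turn gave 0 to 1 called members for light against control at the 8-cell stage. In control the counts were 0 to 1 from the 4-cell to the 8-cell stage, 1 to 2 from there to the morula and 0 to 2 from there to the blastocyst. In light they were 3 to 5 from the 2-cell to the 4-cell stage, 1 to 2 from the 8-cell stage to the morula and 1 to 2 from there to the blastocyst. For the difference of the changes they were 1 to 3. The other counts were constant. Bak1 from the morula to the control blastocyst ran from −0.059 to 1.39, turning negative without control blastocyst embryo 3.

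The fit with the replicate number as a block, which leaves few libraries to estimate the spread because few numbers are shared, called 0 members for light against control at the 2-cell stage. It called 2 from the 8-cell stage to the morula and 0 from there to the blastocyst in control, 0 and 1 over the same steps in light, and 1 for the difference of the changes. The fitted difference of Bcl2 from the 2-cell to the 4-cell stage of control, which rests on 1 library with reads and is no measured change, turned to −0.012 under this block. At the 2-cell stage the block called 0 of 18532 genes. Over all genes, edgeR on the recovered reads called 2162 genes between light and control 2-cell embryos beside 1944 by limma, and in blastocysts 151 (53 higher in light) beside 680 (45 higher). Values near 1 read, as for Bcl2, Bak1 and Bik, are limited by depth.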
